A study of Mus musculus with 20 samples.

Results

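Whole ovaries of newborn mice that lack Figla were compared with control ovaries by RNA-seq on the day of birth (P0), in 3 control and 3 knockout libraries of the 20 libraries in the series. The members are all genes past a filter on low counts, 17321 of the 49585 genes in the count tables, described from the largest fall to the largest rise. Mice were B6D2F1. The genotype field gives Figla+/- for control and Figla-/- for knockout animals, so both groups carry the Figla mutation and the comparison is of 2 mutant copies with 1. The labels name no Cre driver, transgene or treatment, and they do not say whether ovaries were pooled or came from separate animals, so the p-values speak only of how much the libraries of a group vary, and part of that may be technical. Libraries were grouped by library name. The title, source and genotype fields disagree with that name for 2 of the 6 libraries, control replicate 3 and knockout replicate 1.

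FIGLA is a basic helix-loop-helix transcription factor of oocytes, which binds the letters CANNTG (an E-box) as a dimer with a more widely expressed E protein. It is known for switching on the zona pellucida genes, whose products form the egg coat, and mice without it do not form primordial follicles. Around birth, oocytes leave their clusters, each becomes enclosed by flat pregranulosa cells, and the first follicles appear.

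The libraries held 10163849 to 13408022 counts and 26462 to 27824 genes with a count, mitochondrial genes took 1.73% to 3.31% of counts, and levels are given as CPM, counts relative to the scaled library size. Figla itself (chromosome 6, 86016171 to 86020996 in GRCm38) stood at 32.2, 36.1 and 40.5 CPM in controls and at 0.179, 0.626 and 0.294 CPM in knockouts. The groups did not overlap, and the order follows the library names in all 6 libraries, including the 2 whose other labels disagree. Its fitted log2 fold change was -6.54 (SE 0.29, adjusted p = 5.42e-07 in edgeR's quasi-likelihood test, which gives every adjusted p below, by Benjamini-Hochberg over all genes tested).

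Of the 17321 genes, 1880 were called lower in knockouts (10.9%) and 887 higher (5.12%) at an adjusted p under 0.05. Controls and knockouts did not overlap for 6171 genes, or 35.6%. The falls reached much further than the rises. Among genes called lower, 720 fell by over 2-fold and 226 by over 8-fold, and 42 had no count in any knockout library. Among genes called higher, 188 rose by over 2-fold and 16 by over 8-fold. Most called genes in both directions moved by under 2-fold, 1160 of those lower and 699 of those higher, with median log2 fold changes of -0.79 and 0.61 against 0.02 over all genes tested. The number called moved with the libraries used: leaving out control replicate 1 gave 1820 lower and 739 higher, and control replicate 2 gave 1840 and 1042. It fell to 1201 lower and 404 higher without knockout replicate 2, to 1150 and 273 without knockout replicate 3, to 551 higher without control replicate 3, and to 1273 and 562 with only the 4 libraries whose labels agree. In 1 model of all Figla samples, E18.5 included, 1098 were called lower and 265 higher at P0. That model kept all 13 clustered family genes but ended calls elsewhere: it called 4 of the piRNA list in place of 11, 4 of the chromosome axis list in place of 7, 3 of the Wnt list in place of 8, and none of the stroma or Hedgehog genes higher in place of 9 and 6. Grouped by title, edgeR called 0 genes in either direction, with 507 at an unadjusted p under 0.05 (5340 when grouped by library name).

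**Figure D1:**
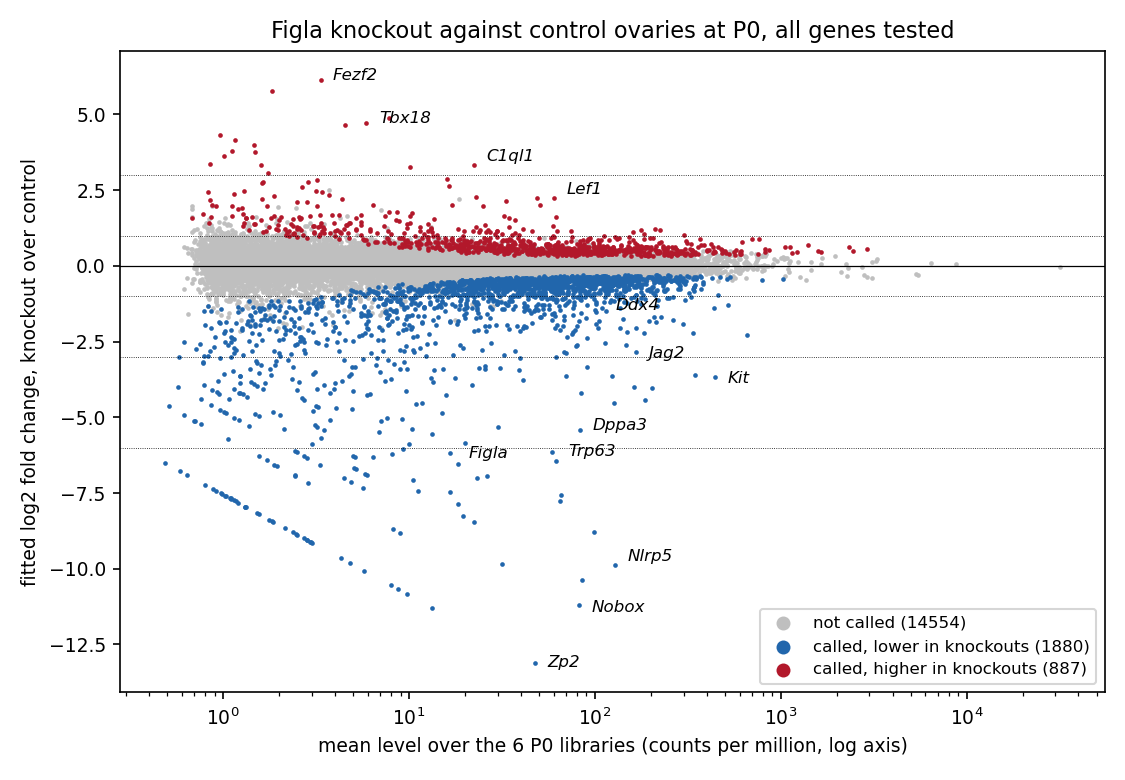
Each point is 1 of the 17321 genes tested at P0, with its mean level over the 6 libraries on a log axis and its fitted log2 fold change on the y axis. Dotted lines stand at the edges of the ranges used in the text. The 226 falls of over 8-fold reach down to Zp2 at -13.12, while 16 genes rose by over 8-fold, up to Fezf2 at 6.14. The slanting line of points at the lower left is made of genes with no knockout count, whose fitted value depends on the software's prior count.

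The deepest falls were in genes of the growing oocyte. Zp2 (chromosome 7, 120126772 to 120145291) stood at 64.0, 75.1 and 147 CPM in controls, Zp3 (chromosome 5, 135980099 to 135988624) at 9.68, 20.2 and 50.3, and Zp1 (chromosome 19, 10914287 to 10920632) at 9.01, 12.6 and 26.6. All 3 egg coat genes were at 0 counts in every knockout library. With 0 counts replaced by a floor of 3 counts over the group, Zp2 was at least 1112-fold lower, Zp3 at least 315-fold and Zp1 at least 188-fold (adjusted p = 1.4e-05, 0.000565 and 0.000155). Nobox (chromosome 6, 43303674 to 43309554), a homeobox transcription factor that oocytes need to grow, stood at 149, 166 and 177 CPM in controls and had 2 counts in all knockouts together against 5887. That is a control to knockout ratio of 2803 (95% counting interval 776 to 23150, adjusted p = 6.39e-09). Such intervals and floors cover counting error only.

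The promoters of some of these genes are shown because FIGLA is a factor of E-boxes and the lost genes held these letters more often, as given below. They are the 250 bases before the RefSeq start of each gene (GRCm38.p6), 5′ to 3′ along the gene, in lower case with each CANNTG in capitals. Zp3 and Nobox are lost genes that act in the oocyte, Oas1h and Padi6 are lost genes of a multicopy family and of the maternal cytoplasm, Nlrp4f is a lost gene with 1 E-box, neither CAGGTG nor CAGCTG, and Tbx18 is among the genes that rose most.
Zp3, chr5.0:135979855-135980104, plus strand: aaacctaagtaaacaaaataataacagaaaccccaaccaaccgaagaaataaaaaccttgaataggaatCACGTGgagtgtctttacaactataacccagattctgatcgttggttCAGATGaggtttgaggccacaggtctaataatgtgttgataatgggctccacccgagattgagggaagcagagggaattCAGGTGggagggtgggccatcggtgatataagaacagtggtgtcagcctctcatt
Nobox, chr6.0:43309555-43309804, minus strand: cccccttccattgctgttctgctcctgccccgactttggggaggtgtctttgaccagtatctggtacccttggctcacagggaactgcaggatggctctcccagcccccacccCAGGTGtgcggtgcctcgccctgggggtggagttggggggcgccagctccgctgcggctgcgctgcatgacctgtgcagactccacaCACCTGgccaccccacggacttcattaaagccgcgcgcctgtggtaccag
Oas1h, chr5.0:120861172-120861421, plus strand: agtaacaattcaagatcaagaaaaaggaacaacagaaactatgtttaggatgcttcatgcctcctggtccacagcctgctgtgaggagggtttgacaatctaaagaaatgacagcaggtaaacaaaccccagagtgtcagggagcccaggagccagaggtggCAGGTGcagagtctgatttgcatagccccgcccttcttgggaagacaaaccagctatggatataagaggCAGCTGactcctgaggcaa
Padi6, chr4.0:140742644-140742893, minus strand: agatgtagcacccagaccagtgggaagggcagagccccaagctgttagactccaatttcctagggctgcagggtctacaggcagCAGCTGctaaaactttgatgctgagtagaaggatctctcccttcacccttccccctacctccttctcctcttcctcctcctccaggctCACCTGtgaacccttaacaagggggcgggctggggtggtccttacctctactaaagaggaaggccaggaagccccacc
Nlrp4f, chr13.0:65205717-65205966, minus strand: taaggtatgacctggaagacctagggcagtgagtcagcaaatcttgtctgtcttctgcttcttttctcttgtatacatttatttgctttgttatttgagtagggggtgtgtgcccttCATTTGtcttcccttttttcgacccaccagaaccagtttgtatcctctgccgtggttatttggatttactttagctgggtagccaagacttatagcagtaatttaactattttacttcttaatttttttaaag
Tbx18, chr9.0:87731261-87731510, minus strand: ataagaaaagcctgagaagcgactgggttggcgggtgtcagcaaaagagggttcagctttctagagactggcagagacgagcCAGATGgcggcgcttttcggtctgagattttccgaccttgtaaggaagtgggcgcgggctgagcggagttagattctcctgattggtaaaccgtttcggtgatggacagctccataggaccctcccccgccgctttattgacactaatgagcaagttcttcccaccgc
In the order shown, these promoters lie on chromosomes 5, 6, 5, 4, 13 and 9, which the labels above write with a decimal. Zp3 held 3 E-boxes, Nobox, Oas1h and Padi6 held 2 each, and Nlrp4f and Tbx18 held 1 each. The table of promoters held no entry under the symbols Zp1 and Zp2.

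Letters were counted on either strand in those 250 bases, with 1 promoter per gene, the first listed. CANNTG includes the 3 forms counted with it. Of the 87 genes below a log2 fold change of -6, 59 had a promoter in the table, and 89.8% of these held CANNTG, 40.7% CAGGTG and 33.9% CAGCTG. Of the 139 genes from -6 to -3, 93 had one, with 77.4%, 39.8% and 20.4%. In all 11828 tested genes with a promoter the shares were 57.8%, 15.8% and 12.1%, and in all 27025 genes listed they were 66.0%, 17.1% and 12.8%. The shares fell off with the size of the change. From -3 to -1, CAGGTG stood in 27.3% of promoters, from -1 to 0 in 17%, among genes tested but not called in 15.2%, and among genes called 0 to 1 higher in 11.5%. CACGTG did not follow that order: it stood in 5.08% of promoters below -6, in 7.53% from -6 to -3 and in 8.22% of all tested. The homeobox letters TAATTA stood in 10.2% of promoters below -6, in 8.6% from -6 to -3, in 2.41% of all tested and in 4.9% of the whole table, and TAATTG in 6.78%, 8.6%, 4.2% and 7.34%. Base composition moved with the ranges too, from a median of 50.4% G and C below -6 to 59.6% in all tested genes, and its part in these shares was not tested. Fewer than 80% of the genes of each lost range had a promoter entry, so the shares describe those promoters and are void as a check of every lost gene.

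**Figure D2:**
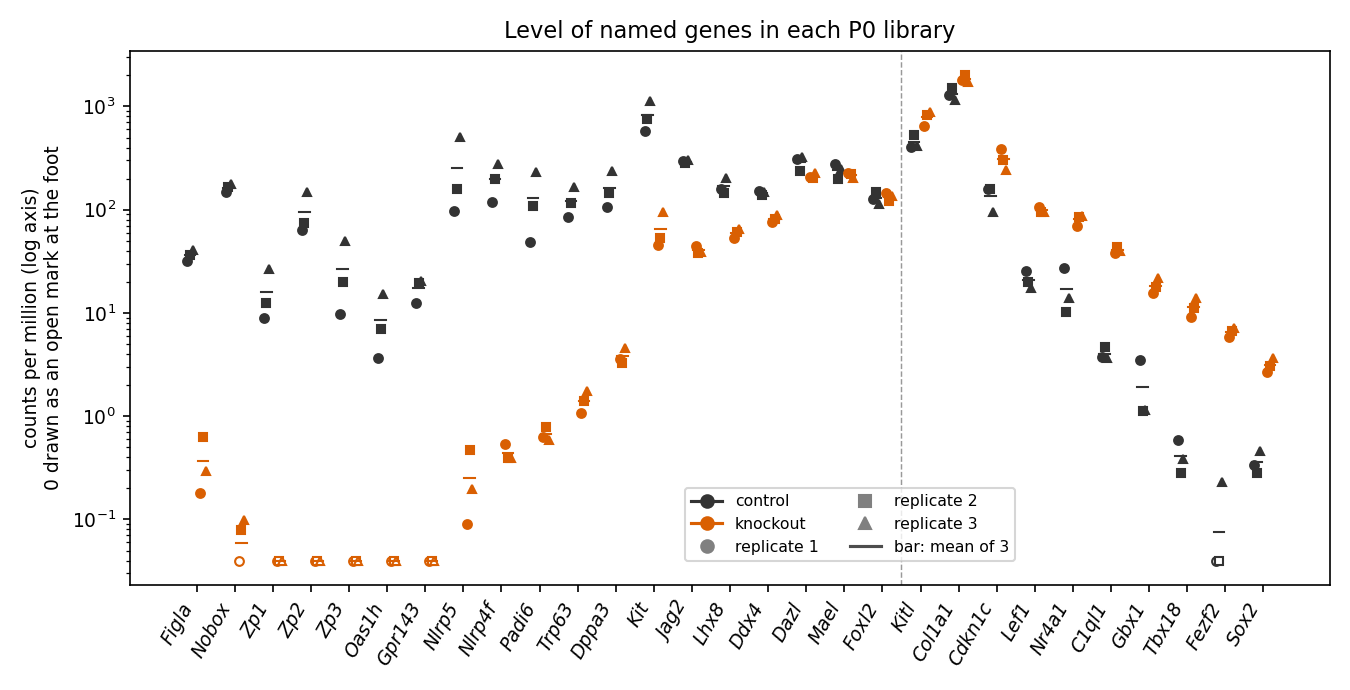
Level of named genes in each of the 6 P0 libraries on a log axis, with controls in dark grey, knockouts in orange, 1 mark shape per replicate number, a bar at the mean of 3 and a count of 0 as an open mark at the foot. Genes left of the dashed line are oocyte, germ cell and pregranulosa genes, from Figla to Foxl2, and those right of it are genes called higher. Zp1, Zp2, Zp3, Oas1h and Gpr143 have no count in any knockout, while Mael and Foxl2 overlap between the groups.

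Other genes were at 0 counts in all knockouts too. Vrtn stood at 23.1, 22.3 and 13.1 CPM in controls (at least 218-fold lower) and Gpr143, which encodes a G protein-coupled receptor of pigment organelles, at 12.4, 19.5 and 20.2 (at least 198-fold). Astl, the egg protease that cleaves ZP2 after fertilization, stood at 2.42, 5.02 and 9.54 (at least 66-fold). Izumo1r, which encodes the egg's receptor for sperm, was at 0 in knockouts against 4.01, 4.74 and 5.42 CPM, and Tbpl2, an oocyte relative of the TATA-binding protein, at 0 against 2.09, 3.07 and 5.5. Anks4b and Agr3, which are not among the listed oocyte genes, were at least 61.3-fold and 57.8-fold lower. Each of these genes had counts in all 3 controls.

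Of 9 oocyte transcription factors tested, 7 were called lower, with a median log2 fold change of -1.41 over the 9 (10.9% of all genes were called lower). Figla, the gene knocked out, is 1 of the 7. Lhx8, a LIM homeobox factor, went from 160, 146 and 201 CPM to 53.3, 60.8 and 65.4 (a change of -1.5 ± 0.14, log2 and SE, at an adjusted p of 5.42e-05), a call lost in 1 model of all Figla samples (-1.5, adjusted p = 0.242). Sohlh2 fell by 1.41 and its helix-loop-helix partner Sohlh1 by 0.80, and Taf4b, a subunit of the general factor TFIID, by 0.71. So only Nobox, Tbpl2 and Figla were near 0 among them. Foxo3, which holds primordial oocytes at rest, had a log2 fold change of -0.39 and Taf7l of 0.33, and neither was called. Of the 7 E proteins and Id genes, 1 was called: Id1, which codes for an inhibitor of helix-loop-helix dimers, went from 118, 94.1 and 92.8 CPM to 45.7, 52.4 and 51.4. Tcf3, Tcf4 and Tcf12, which encode E proteins, had log2 fold changes of -0.19, 0.11 and 0.19 and were not called.

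Among egg coat and secreted oocyte genes, 8 of 9 tested were lower. Their median log2 fold change was -8.79, or -5.75 with the 5 genes at 0 set to their bound. Those 5 passed the count filter through the controls alone, so their being lower is no test. Gdf9 and Bmp15 encode growth factors through which oocytes act on granulosa cells. Gdf9 went from 8.76, 14 and 24.2 CPM to 1.61, 2.58 and 2.65 (log2 fold change -2.78, SE 0.38, adjusted p = 0.000754) and Bmp15 from 1.33, 1.77 and 2.14 to 0.179, 0.235 and 0.49. Both kept a measurable level in all 3 knockouts, unlike the egg coat genes. Cd9, an egg membrane protein of sperm fusion that other cells also express, fell by 1.05.

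Genes of the maternal cytoplasmic complex and its Nlrp relatives were lower in 9 of 9 tested, while 8 more listed members did not pass the count filter. Members near 0 in knockouts can pass that filter only through the controls, so for them being lower is no test. Nlrp5, a core protein of that complex, stood at 97.9, 160 and 509 CPM in controls and 0.0896, 0.47 and 0.196 in knockouts (-9.87 on the log2 scale, SE 0.87, adjusted p = 4.15e-05). Padi6, which eggs need for their cytoplasmic lattices, stood at 49.1, 110 and 232 against 0.627, 0.783 and 0.588. Control replicate 3 was the highest library for both. Nlrp4f went from 118, 200 and 277 CPM to 0.538, 0.391 and 0.392, and Nlrp14 from 12.5, 25 and 78.6 to 0, 0.235 and 0.098. Tle6 and Zbed3, of the same complex, had log2 fold changes of -1.41 and -1.51 and kept 51.3 to 64.7 and 48.6 to 56.7 CPM in knockouts. Counts of the Nlrp4, Oas1, Tcl1b and Fbxw copies are uncertain, since a read that matches more than 1 copy may be dropped or assigned to another.

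Several multicopy families were lost together. In the list of clustered families, 13 of 13 tested members were called lower, 9 of them with no knockout count, while 14 did not pass the filter. Those 9 passed the filter through control counts alone, so their being lower is no test. Over all genes tested, 10.9% were called lower. The Fbxw genes, which encode F-box proteins, lay within chromosome 9, 109139447 to 109746089, and all 5 tested genes of that span fell by over 8-fold: Fbxw15, Fbxw18, Fbxw21, Fbxw24 and Fbxw26. Tcl1, Tcl1b1 and Tcl1b2 were the only 3 tested genes in chromosome 12, 105146014 to 105222793. Oas1d, Oas1e and Oas1h were lost over 8-fold in chromosome 5, 120786226 to 120921652, where Oas1c fell by 2.45 on the log2 scale and Oas1b was not called. Each span was drawn from the first to the last gene lost over 8-fold, so the share lost inside it is no test. Pramef12 stood at 125, 153 and 233 CPM in controls and 0.358, 0 and 0 in knockouts. Oas1h stood at 3.67, 6.97 and 15.1 CPM against 0 in all knockouts. Runs of at least 3 lost genes with starts within 500000 bases of the next also held Trim60, Trim61 and Trim75 on chromosome 8, and Lrrc31, Samd7 and the unnamed Gm15462 on chromosome 3.

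Of 16 tested maternal chromatin and RNA factors, 12 were called lower and 0 higher. Dppa3, which guards maternal methylation in the egg, stood at 105, 145 and 240 CPM in controls and 3.58, 3.29 and 4.61 in knockouts. Kdm1b, the histone demethylase needed for maternal imprints, went from 503, 632 and 786 CPM to 49.1, 56.0 and 51.7 (log2 fold change -3.61, SE 0.17, adjusted p = 6.14e-07). It kept a level near 50 CPM that differed little between knockouts. H1foo, the linker histone of oocytes, had 2 counts in knockouts against 323. Dnmt1, Uhrf1 and Bnc1 fell by 0.53, 0.67 and 0.56, while Ctcf, Trim28, Tet3 and Dnmt3a were not called.

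Receptors and signals of the oocyte split. Kit, the receptor through which pregranulosa cells promote oocyte survival and growth, went from 579, 756 and 1124 CPM to 46.0, 53.5 and 94.8 (log2 fold change -3.67, SE 0.31, adjusted p = 2.76e-05). Its ligand gene Kitl, made by the pregranulosa cells, went the other way, from 407, 534 and 415 to 653, 819 and 882 (0.79, SE 0.14, adjusted p = 0.00412). In neither gene did the groups overlap. Gja4, the connexin of the oocyte's gap junctions, had a log2 fold change of -2.15, Gpr3, which keeps oocytes arrested, of -3.35, Mos of -4.06 and Wee2, a kinase of meiotic arrest, of -6.29. Pik3ca, Rictor, Tsc1 and Tsc2, of the PI3K pathway, had log2 fold changes between -0.01 and 0.09 and were not called. In all, 7 of 23 were lower and 2 higher, Adcy3 and Npr2, of which 1 was left without knockout replicate 1 or 2.

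Jag2 and Jag1, ligands that reach Notch receptors on pregranulosa cells, both fell. Jag2 stood at 295, 282 and 301 CPM in controls and 45.0, 38.4 and 38.9 in knockouts (log2 fold change -2.84, SE 0.11, adjusted p = 2.27e-07), and Jag1 fell by 1.5. Of the receptors, Notch2 had a log2 fold change of -0.03 and Notch1 of 0.22, and neither was called, while Notch3 and Notch4 were called higher (0.75 and 0.94) and both lost the call without control replicate 1, control replicate 3, knockout replicate 2 or knockout replicate 3 (adjusted p = 0.0788 to 0.164). Without control replicate 1, 4 genes of the pathway were lower. The target genes Hes1, Hey1, Hey2 and Heyl had log2 fold changes of -0.34, -0.55, -0.84 and -0.78 and were not called.

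Trp63, whose product checks oocyte genomes for damage, went from 85.1, 116 and 165 CPM to 1.08, 1.41 and 1.76 (log2 fold change -6.43, SE 0.30, adjusted p = 6.14e-07). Its relatives Trp53 and Trp73 had log2 fold changes of 0.08 and 0.00. Of 20 survival and death genes, 4 were lower and 1 higher. Besides Trp63 these were Chek1 (-0.83), Bax (-0.43), Bcl2l10 with 1 count in knockouts against 76, and Bcl2l11 (0.43). Without knockout replicate 3, 2 were lower, and Bcl2l11 kept its call only without knockout replicate 1 (adjusted p = 0.0519 to 0.169 without each other library). The p53 targets Cdkn1a, Bbc3, Pmaip1 and Mdm2 were not called.

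General germ cell genes fell less or not at all. Ddx4, the RNA helicase that marks germ cells, stood at 153, 138 and 148 CPM in controls and 75.7, 80.5 and 88.9 in knockouts (log2 fold change -0.84, SE 0.10, adjusted p = 0.000388). Dazl, an RNA-binding translation factor of germ cells, stood at 310, 237 and 322 against 208, 205 and 225 (-0.45, SE 0.12, adjusted p = 0.034), a call lost without any 1 library other than control replicate 2 (adjusted p = 0.0856 to 0.117). Mael, of the piRNA pathway, stood at 279, 200 and 249 against 228, 222 and 204 CPM and was not called (-0.15, SE 0.12, adjusted p = 0.449). The groups overlapped for Mael alone of these 3. In bulk tissue, fewer cells of a type and less RNA per cell cannot be told apart. Of the 8 markers of oocytes and germ cells, 7 were called lower, against 10.9% of all genes tested. Figla, the gene knocked out, is 1 of the 7, so its log2 fold change of -6.54 was set by the design. Those of the other markers ran from -5.42 for Dppa3 to -0.15 for Mael.

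Within the machinery of meiosis the pattern was uneven. Of 18 genes of chromosome axes, 7 were lower and 0 higher. Sycp2l, an oocyte relative of the axis protein gene Sycp2, stood at 27.1, 30.2 and 51.7 CPM against 0.179, 0.0783 and 0.196 (-7.85, SE 0.42, adjusted p = 1.47e-06). The other 6 called members, Sycp3, Syce1, Syce2, Tex12, Hormad1 and Terb1, fell by 0.72 to 1.18. Sycp1, Sycp2, Smc1b, Rec8 and Stag3 were not called. Of 21 genes of meiotic entry and recombination, 1 was higher. Meioc, needed to stay in meiotic prophase, went from 59.2, 17.1 and 15.9 to 104, 92.6 and 84.0 (1.6, SE 0.41, adjusted p = 0.0233). Control replicate 1 was far above the other controls for Meioc, and the call was lost without control replicate 2, control replicate 3, knockout replicate 1 or knockout replicate 2 (adjusted p = 0.0518 to 0.0654), while 4 genes of this list were higher without control replicate 1. Spo11, Dmc1, Hfm1, Msh4 and Msh5 were not called.

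The piRNA pathway, which silences transposons in germ cells, was lower in 11 of 18 members and higher in 0. Its median log2 fold change was -0.60. Tdrd1, a scaffold of piRNA granules, went from 472, 493 and 707 CPM to 121, 115 and 126 (-2.21, SE 0.15, adjusted p = 8.51e-06), and Tdrd5 fell by 1.82, Henmt1, which methylates piRNAs, by 1.47 and Exd1 by 1.39. Piwil2 fell by 0.61 and Mov10l1 by 0.34. Among RNA-binding and translation genes, 7 of 20 were lower: Elavl2 (-3.35), Lsm14b (-1.90), Cpeb1 (-1.70), Ybx2 (-1.12), Ddx4, Ddx25 (-0.76) and Dazl. Elavl2 stood at 121, 139 and 234 CPM against 16.3, 14.3 and 18.

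Early germ cell genes moved both ways, 3 of 11 lower and 2 higher. Pou5f1, a pluripotency factor that oocytes express again as they grow, had 3 counts in knockouts against 370, a ratio of 118 (95% counting interval 39.9 to 572). Lin28a went from 7.09, 12.6 and 31.1 CPM to 1.88, 1.8 and 1.96. Sox2 went from 0.334, 0.279 and 0.458 CPM to 2.69, 3.05 and 3.63 (3.07, SE 0.37, adjusted p = 0.000387). Sall4, Lin28b and Prdm1 were not called. Of 11 testis-associated genes, Dmrtb1 (-2.79) and Tuba3a (-1.96) were lower, and 2 more were higher without control replicate 1.

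Some genes with high counts fell by less and kept a large remainder, while others, Esrp1, Neb and Nos1, fell by over 8-fold. Alg13, which takes part in building sugar chains for glycoproteins, went from 928, 1009 and 1335 CPM to 223, 215 and 233 (-2.29). D10Wsu102e fell by 1.31, Rdx, which links actin to the membrane, by 1.39 and Uchl1, a deubiquitinase of neurons and germ cells, by 1.03. Esrp1, an RNA splicing regulator of epithelia, went from 368, 331 and 442 to 27.5, 19.6 and 23.1 (-4.02). Neb, which encodes the giant thin-filament protein of muscle, went from 345, 258 and 460 to 18.8, 17.9 and 12.7 (-4.42), and Nos1, a nitric oxide synthase of neurons, from 255, 303 and 363 to 21.9, 19.7 and 16.5 (-3.98). The muscle markers together stood at 17.7 to 20.1 CPM in controls and 23.2 to 34.4 in knockouts, with Des the highest in each library at 11.3 to 18.8, while Myh3 and Myl2 were at 3.32 or less. Of the neuron markers, Syt1 stood at 18.9 to 39.2 CPM and Map2 at 15 to 30.5 over the 6 libraries, and Tubb3 and Snap25 at 2.19 or less. Among the smallest called falls, Wnk1 fell by 0.43, Maged2 by 0.46, Crebbp by 0.35 and Hsp90aa1 by 0.37. Each of these 4 lost its call without at least 1 library, and Hsp90aa1 also with RLE scaling or no scaling factors (adjusted p = 0.0545 and 0.0548).

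Deep falls were not spread evenly over kinds of gene. Long intergenic noncoding and protein-coding genes were called lower at like shares, 11.7% and 12.4%. Of 368 tested genes of the first kind, 25 (6.79%) fell by over 8-fold, against 180 of 14352 of the second (1.25%). Over chromosomes 1 to 19 and X, the share of tested genes lost over 8-fold ran from 0.368% on chromosome 14 to 2.14% on chromosome 9.

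The largest rises were in genes with low counts. Fezf2, a transcription factor of forebrain neurons, had 3 counts in all controls together and 225 in knockouts, a ratio of 78.8 (95% counting interval 26.6 to 385). Cplx3, a synaptic protein, had 2 against 122, a ratio of 64.1 (interval 17.4 to 535). Sox2ot, a noncoding transcript that overlaps Sox2, had 3 against 64, so reads of Sox2 and Sox2ot cannot be told apart where they overlap. Tbx18, a T-box factor known from the surface of the embryonic gonad, went from 0.584, 0.279 and 0.382 CPM to 9.14, 11.1 and 13.8 (4.73, SE 0.34, adjusted p = 9.83e-06). C1ql1, a secreted C1q-like protein known at synapses, went from 3.75, 4.65 and 3.66 to 38.2, 43.8 and 40.0 (3.34, SE 0.16, adjusted p = 6.36e-07). Gbx1, a homeobox factor, went from 3.5, 1.12 and 1.15 to 15.7, 17.8 and 21.7, and Kif5a, a kinesin of axons, from 5.34, 3.35 and 2.75 to 28.6, 29.6 and 26.1. The groups did not overlap for any of these, but the largest rises were picked among called genes without overlap, so that is no test. Over all genes tested, the groups did not overlap for 35.6%. Neurog2 (3.98), Abcc12 (3.79), Lman1l (3.75), Rspo4 (3.38), Icam5 (3.35) and Kcns2 (2.76) rose at levels of 3.68 CPM or less.

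Neuron markers are given beside these genes. Of 10 neuron and neural progenitor genes tested, 1 was called, and it was lower: Th, the enzyme that starts catecholamine synthesis, stood at 27.2, 38.1 and 68.2 CPM in controls and 0.0896, 0.0783 and 0.196 in knockouts (-8.44, SE 0.53, adjusted p = 4.76e-06). The glial marker Sox10 stood at 1.18 CPM or less. Without Th, the summed level of the neuron list was 50.7, 65.8 and 58.2 CPM in controls and 56.9, 65.8 and 63.7 in knockouts, and the groups overlapped.

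Rises with higher counts were smaller. Marcksl1 went from 173, 203 and 222 CPM to 386, 425 and 396 (1.01), Cdkn1c, an imprinted cell cycle inhibitor, from 158, 159 and 94.7 to 389, 303 and 241 (1.18), and Ajuba, a LIM protein of cell contacts, from 162, 104 and 114 to 311, 284 and 293 (1.22). Tle3, a corepressor of Wnt and Notch targets, rose by 1.18 and Zfp503 by 1.04. Below 2-fold, the genes with the most counts were H19, Col3a1, Igfbp5, Nedd4 and Col1a1, with log2 fold changes of 0.55, 0.48, 0.64, 0.46 and 0.49. Of these 5, Igfbp5 kept its call under each left-out library, and the others lost it under 4 or 5 of the 6.

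Among signalling pathways of the somatic cells, 8 of 31 tested Wnt genes were higher and 0 lower, with a median log2 fold change of 0.41 (5.12% of all genes were called higher). Lef1, a transcription factor at the end of the pathway, stood out from the other 7, which rose by 0.37 to 0.81: it went from 25.3, 19.9 and 17.6 CPM to 107, 94.3 and 95.8 (2.24, SE 0.15, adjusted p = 5.67e-06). The others were the ligand Wnt5a, the receptors Fzd1, Fzd2 and Fzd7, Tcf7l1, Tcf7l2 and the secreted inhibitor Sfrp1. Axin2, a common target, had a log2 fold change of 0.42 and was not called. The count of 8 became 5 without control replicate 1 or knockout replicate 1, 13 without control replicate 2, 4 without knockout replicate 2 and 3 without knockout replicate 3, and Lef1 was called each time. DESeq2 called 13. In the Hedgehog pathway, Smo, Sufu, Gli2, Gli3, Gas1 and Boc were higher by 0.44 to 0.67, while Ptch1, receptor and target, fell from 129, 129 and 158 CPM to 85.9, 77.0 and 87.2 (-0.73, SE 0.11, adjusted p = 0.00166). These 6 of 12 became 3 without control replicate 1 and 1 without knockout replicate 3. In the TGF-beta family, 5 of 30 were higher, the inhibitor Fst and Tgfb2, Acvr1, Smad6 and Smad7, and 2 were lower, Gdf9 and Bmp15, and 3 were higher without control replicate 3, knockout replicate 2 or knockout replicate 3 and 9 in DESeq2.

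**Figure D3:**
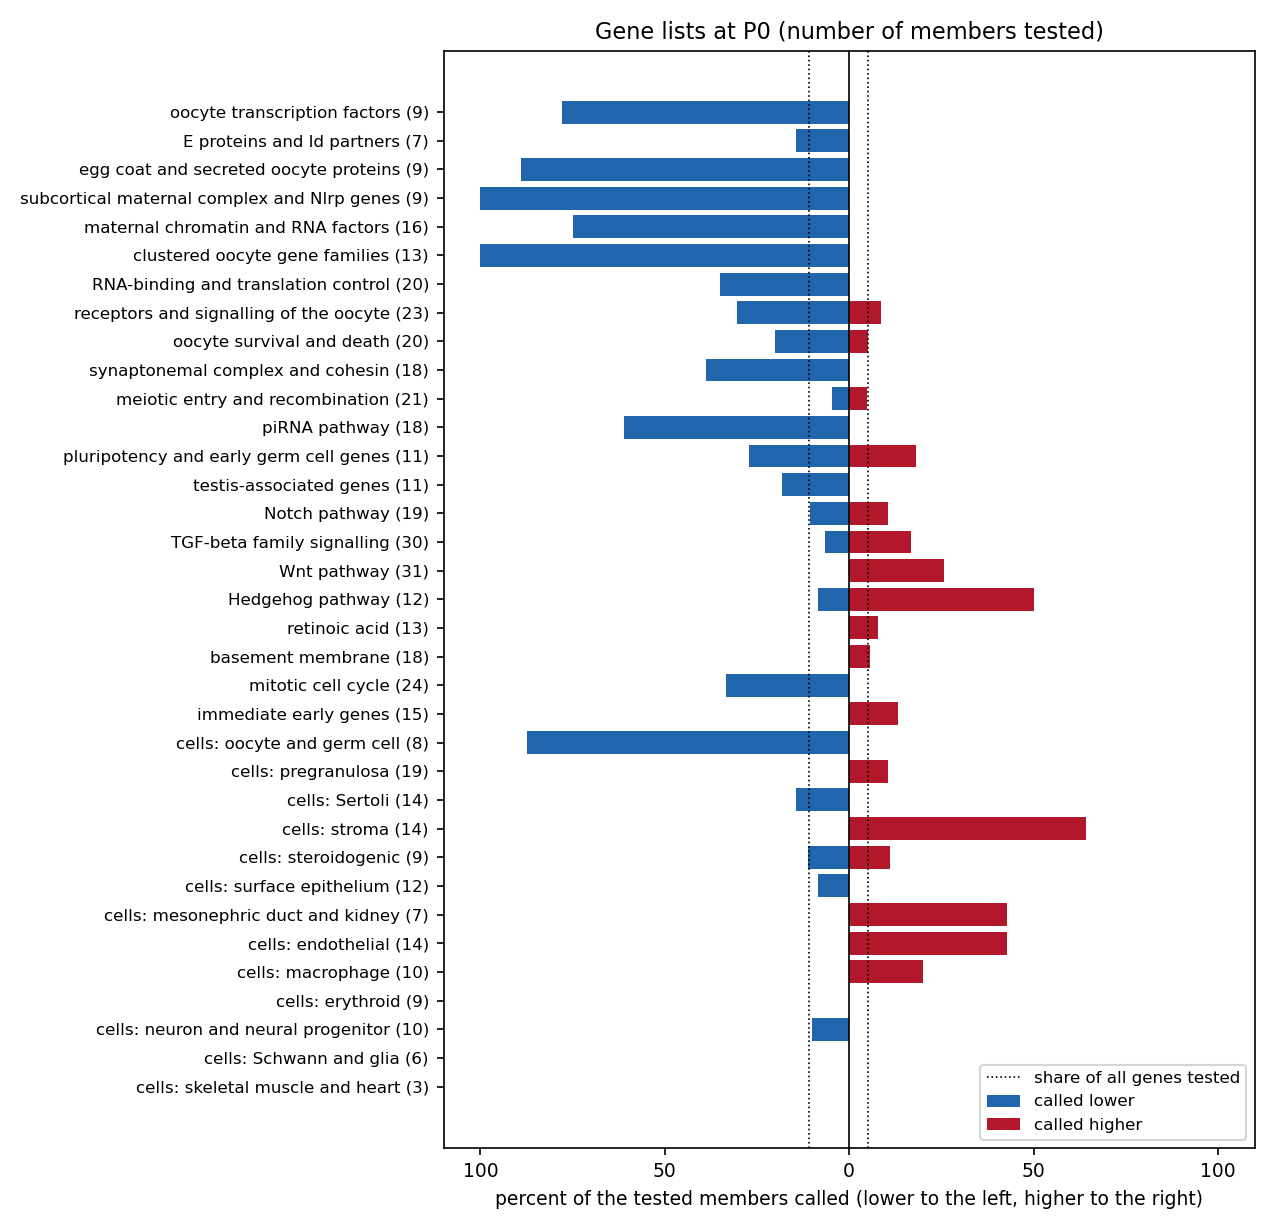
Share of the tested members of each gene list called lower (bars to the left) or higher (bars to the right) at P0, in percent, with the number of members tested in parentheses. Dotted lines mark the 10.9% of all genes called lower and the 5.12% called higher. Lists of oocyte genes reach far to the left, such as 9 of 9 genes of the maternal cytoplasmic complex, and the stroma list reaches furthest to the right with 9 of 14.

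Markers of the ovary's other cells differed from list to list. Of 14 stroma markers, 9 were higher and 0 lower (median log2 fold change 0.46), among them Pdgfra, from 135, 149 and 133 CPM to 163, 238 and 251, and Col1a1. Of 14 endothelial markers, 6 were higher (median 0.53), among them Cdh5 from 82.9, 113 and 74.0 to 121, 148 and 156. The stroma count of 9 became 4 without control replicate 1, 3 without control replicate 3, 2 without knockout replicate 2 and 1 without knockout replicate 3, and the endothelial count of 6 became 3, 1, 1 and 0. In pregranulosa cells 2 of 19 were higher, Kitl and Fst (median 0.42), with 7 higher without control replicate 2 and 1 without knockout replicate 1. DESeq2 called 10 of the 19 higher, and edgeR with no filter on low counts 9. Foxl2, the factor that defines them, stood at 128, 148 and 114 CPM in controls and 146, 121 and 135 in knockouts and was not called (0.04, SE 0.12, adjusted p = 0.855). Of 10 macrophage markers 2 were higher, and none without any 1 library other than control replicate 3. The medians of the macrophage (0.50), steroidogenic (0.49) and mesonephric (0.66) lists were also above 0, that of the surface epithelium was 0.12 with 4 of 12 members below 0, and Ret, Calb1 and Ovgp1 were the 3 of 7 mesonephric markers called higher. Of 18 basement membrane genes 1 was higher, Hspg2, and of 13 retinoic acid genes 1, Dhrs3, both near the 5.12% of all genes called higher. Dhrs3 lost its call without any 1 library other than control replicate 2 (adjusted p = 0.0585 to 0.14). Since CPM is a share of each library, a fall in germ cell RNA and a rise in somatic RNA cannot be told apart here.

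A few members went against their lists. Hsd3b6, a steroid dehydrogenase in the steroidogenic list, stood at 1.84, 3.25 and 10.5 CPM in controls and 0.179, 0.235 and 0.294 in knockouts (-4.42), while Lhcgr rose by 1.33, a call lost without any 1 knockout (adjusted p = 0.0868 to 0.0907), and Star and Cyp11a1 were not called. Tesc and Gatm, of the Sertoli list, fell by 3.58 and 0.83, Gatm losing its call without control replicate 3 (adjusted p = 0.0567), and the defining Sertoli factors Sox9 and Dmrt1 were not called (0.25 and 0.48). Cdh1, the epithelial cadherin that oocytes also carry, fell by 0.61, a call lost without any 1 library other than control replicate 2 (adjusted p = 0.0585 to 0.154). Of 24 mitotic cell cycle genes, 8 were lower and 0 higher, among them Birc5 (-1.27), Plk1 (-0.96) and E2f1 (-0.89), and 4 were lower without knockout replicate 3. Mki67 and Top2a were not called. Of 15 immediate early genes, which respond to handling, 2 were higher: Nr4a1, a nuclear receptor, from 27.0, 10.3 and 14.1 CPM to 69.0, 85.5 and 87.1 (2.23, SE 0.28, adjusted p = 0.000473), and Jund by 0.85, with 4 higher without control replicate 1. Fos, Fosb, Jun and Egr1 were not called.

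The 3 controls were not alike for the lost genes. Of the 87 genes below -6, control replicate 3 was the highest control for 66 and control replicate 1 the lowest for 64. Their summed level was 1535, 2025 and 3207 CPM in controls 1, 2 and 3 and 7.89, 10.2 and 10.6 CPM in knockouts. From -6 to -3 the sums were 4101, 4636 and 6725 against 342, 344 and 390, and from -3 to -1 they were 24199, 25048 and 32883 against 9664, 9422 and 9751. The knockouts thus lay close together where the controls were spread out. Over all genes tested, control replicate 3 was the highest control for 35.1%. Erythroid markers also varied among the libraries, with sums of 159, 406 and 1193 CPM in controls and 223, 912 and 637 in knockouts, and none of 9 was called in edgeR or DESeq2, but 6 were higher with only the 4 libraries whose labels agree. Their part in the spread of the lost genes was not tested. The lowest control stayed above the highest knockout for each of the 226 genes lost over 8-fold. As these genes were called on the same libraries, that is no test. Over all genes tested, the groups did not overlap for 35.6%.

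The last comparison asks whether the Figla effect at birth differed from that just before it, at embryonic day 18.5 (E18.5). The 8 Figla libraries of that age, with the same 2 genotypes, were counted as 6 samples, since replicates 1 and 2 of each genotype agreed nearly to sampling noise (chi-square per degree of freedom 1.12 and 1.32, against 17 to 62.3 for the other pairs of that age) and were summed. In the test of the difference between the 2 ages, edgeR called 0 of 18379 genes (0.0%), with 977 at an unadjusted p under 0.05. DESeq2 called 1 higher, Tbx18, and 2 lower, Tspan33 and Tmem14c, and edgeR with no filter on low counts called 63. For Tbx18, E18.5 controls stood at 0.685, 1.37 and 0.877 CPM and E18.5 knockouts at 1.9, 1.57 and 4.32, and the effect at P0 was larger by 3.26 on the log2 scale (SE 0.64, unadjusted p = 0.000229, adjusted p = 0.912 in edgeR).

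Most genes called at P0 had a fold change of the same sign at E18.5: 87 of 87 below -6, 135 of 139 from -6 to -3, 465 of 494 from -3 to -1, and 586 of 699 from 0 to 1, against 12024 of all 18379 genes tested. All 87 genes below -6 at P0 were below -1 at E18.5, with a median of -5.67 there and -7.58 at P0 in 1 model of all Figla samples. For the 494 genes from -3 to -1 the medians were -0.69 and -1.51, and for the 699 genes from 0 to 1 they were 0.13 and 0.55. These genes were chosen on their P0 values, so that the smaller change at E18.5 is no test. The summed level of the 87 genes stood at 714, 63.9 and 1282 CPM in E18.5 controls and at 9.6, 14 and 11.3 in E18.5 knockouts, against 1561, 2064 and 3286 in P0 controls on the same scale. E18.5 control replicate 3 stood apart, with Nobox at 2.06 CPM against 73.9 and 108 in the other E18.5 controls and Figla at 3.78 against 21.9 and 26.7. Titles disagree with library names for 4 of the 8 libraries of that age, this one included. Without it, the median E18.5 effect on the 87 genes was -6.12 and edgeR again called 0 genes for the difference between ages, with 701 at an unadjusted p under 0.05. Kit stood at 388, 66.5 and 535 CPM in E18.5 controls and at 77.3, 66.4 and 54.0 in E18.5 knockouts, and the difference between its effects was -1.34 (SE 0.76, adjusted p = 0.92).

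**Figure D4:**
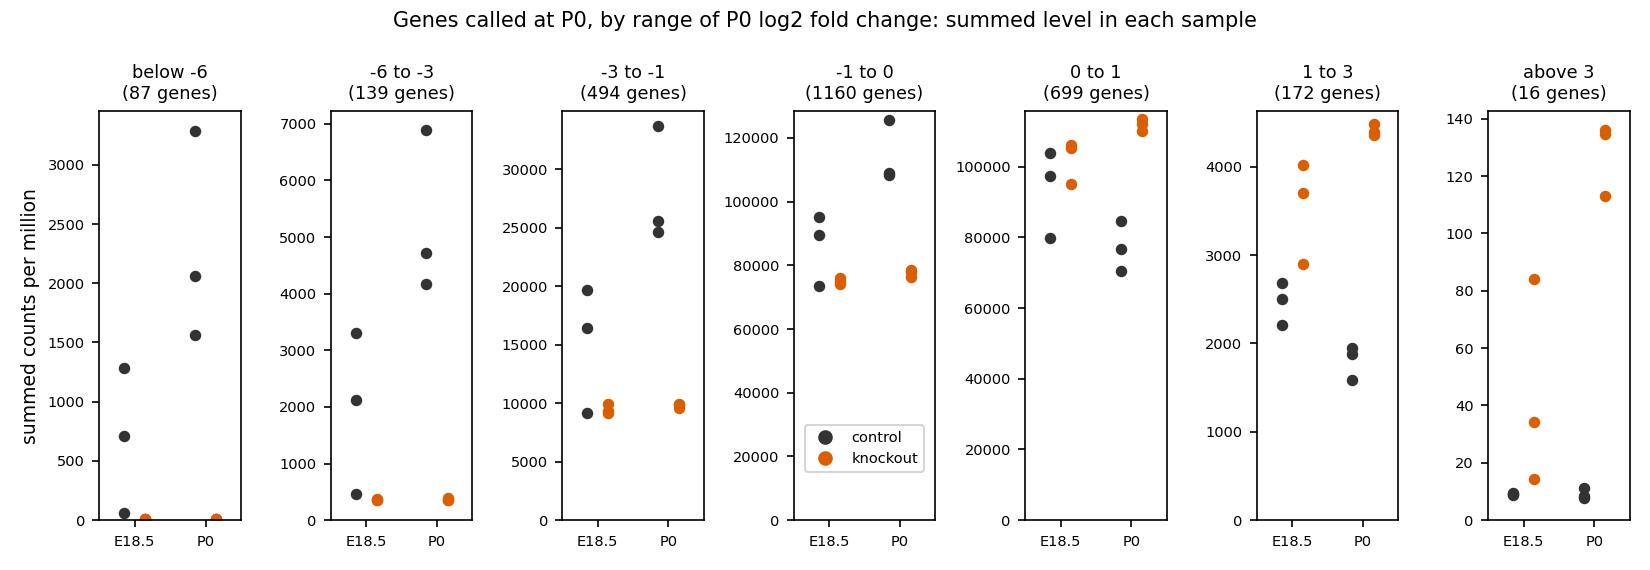
Summed level, in CPM scaled over all Figla samples, of the genes called at P0, in 7 panels by range of their P0 log2 fold change, with each E18.5 and P0 sample as a point and each axis starting at 0. In the 3 panels of genes that fell by over 2-fold, P0 controls lie far above the knockouts and E18.5 control replicate 3 is the low dark grey point near the knockouts. Panels are on different scales.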

How the data were processed

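RNA-seq was made from whole ovaries. Per the labels' protocols, mRNA was purified from total RNA with Dynabeads and libraries were made with Nextera, which keeps no strand, so overlapping and antisense genes cannot be told apart. The deposited values are raw counts per gene, which the authors made with featureCounts 1.6.0 on GENCODE M12, per the file headers, and the submitters' processing notes name cutadapt, HISAT2 and GRCm38.p5. Libraries were grouped by library name, not by title, and Figla counts follow that name.

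Genes were kept by edgeR's filterByExpr (minimum count 10, minimum total 15), scaled by TMM and tested with the quasi-likelihood test of edgeR 4.0.16 in R 4.3.3 on the 6 P0 libraries, with Benjamini-Hochberg adjustment and a threshold of 0.05. The effects at P0 and E18.5 were compared by an interaction term over all Figla samples. On simulated counts for 17321 genes, the P0 test recovered 66% of 2-fold and 89% of 4-fold changes, with 10 false calls. Symbols matched 49326 of 49585 gene IDs. Named genes were Figla, the 15 largest falls and 15 largest rises called with no overlap and no placeholder name, the 5 called genes of highest mean level in each range of change, the defining markers and up to 4 most changed called members of each list, and members that were not called, with their values. Other called members are named as part of a list's count. Some genes that meet the rule are not reported here. Members and lists were chosen with earlier results of these data known. Promoters came from RefSeq (GRCm38.p6), matched by symbol for 11828 of the genes tested. Alternatives were RLE or no scaling, DESeq2 1.42.0, other filters, a replicate block, other label choices, 1 model of all Figla samples and leaving out each library.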

Additional observations from a re-analysis of the deposited data

How the results depend on the processing

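The count of genes called lower, 1880, was 1098 in 1 model of all Figla samples and 0 when grouped by title, and ran from 1150 to 1840 when 1 library was left out. The count called higher, 887, was 265, 0, and 273 to 1042 in the same settings, and it was 1379 with no filter on low counts and 562 with only the 4 libraries whose labels agree. RLE scaling, no scaling factors, DESeq2 and a minimum count of 50 stayed within 1.5 times the main counts. For the difference between ages, DESeq2 called 2 genes lower and 1 higher and the fit with no filter called 58 and 5, against 0 in the other settings. The cause was not tested.

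With the replicate block, edgeR called 2661 genes lower and 2019 higher, including all 1880 and 887. Replicate numbers follow the order of deposit, so they are no pairing by design, but deviations of same-numbered control and knockout libraries correlated at 0.47, 0.317 and 0.403 over 5000 genes, and every other pair at -0.0344 or below. Deviations from a group's mean sum to 0, so positive same-number pairs push the other pairs below 0, which adds no support. Each library correlated best with its own number, but these correlations are tied to each other, so that is no test of pairing. Of 149 named genes, the block ended no call and gave 4 more, and it called 11 of 19 pregranulosa, 17 of 31 Wnt and 14 of 24 mitotic genes in place of 2, 8 and 8.

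Grouped by title, 34 of the 149 named genes changed sign, none of them called (adjusted p = 0.9997). The log2 fold changes became 0.085 for Zp2, 0.76 for Zp3, 0.31 for Zp1, 0.98 for Nlrp5, 0.52 for Oas1h, 0.20 for Oas1e, 0.38 for Astl, 0.56 for Padi6, 0.0069 for Rdx and 0.15 for Uchl1. They became 0.12 for Tbpl2, 1.08 for Nlrp14, 0.087 for H1foo, 0.35 for Pou5f1, 0.33 for Dppa5a, 0.70 for Lin28a, 0.019 for Jag1, 0.28 for Gdf9, 0.061 for Plk1, 0.015 for E2f1 and 0.061 for Aurka. They became 0.0075 for Tesc, 0.018 for Gatm, 1.08 for Hsd3b6 and 0.074 for Th. Genes higher by library name became -0.20 for H19, -0.15 for Cdkn1c, -0.011 for Zfp503, -0.23 for Fst, -0.20 for Dhrs3, -0.016 for Hspg2, -0.015 for Jund, -0.040 for Lhcgr and -0.15 for Calb1. Leaving out 1 library ended 6 to 32 of the named calls, and 1 model of all Figla samples ended 46, among them Lhx8, Nr4a1 (adjusted p = 0.332), Uchl1 (0.423), Ybx2 (0.127) and Tdrd1 (0.0547). Depth limits genes of few counts, and 3 libraries a group limit changes of under 2-fold.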

Other observations

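Several genes best known from muscle and from synapses were among those that fell, and were picked out after their values were seen. Ttn, the giant spring protein of muscle, stood at 216, 174 and 338 CPM in controls and 14.8, 7.91 and 8.72 in knockouts (log2 fold change -4.54, SE 0.30, adjusted p = 5.67e-06 in edgeR), and Nexn, Myom3 and Actn3, which encode sarcomere proteins, had log2 fold changes of -2.54, -4.12 and -1.64. Synj1, which recycles synaptic vesicles, stood at 334, 201 and 269 against 60.7, 67.4 and 64.1, and Rims1, Unc13c and Snap91, of the same compartment, had log2 fold changes of -2.55, -3.4 and -2.98.

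Transcription factors of the embryo were among the moderate rises, also picked out after their values were seen. Sall1 went from 9.51, 4.18 and 9.62 CPM to 34.3, 37.7 and 42.0 (2.28, SE 0.26, adjusted p = 0.000224), Sp5, a target of Wnt signalling, from 26.3, 19.9 and 14.7 to 100.2, 65.4 and 77.1, and Sox3 from 6.17, 5.49 and 8.55 to 26.4, 26.2 and 29.3. Msx1, Msx2 and Ebf3 rose by 1.65, 1.78 and 1.78. The groups did not overlap for Sall1, Sp5 or Sox3. Slc2a3, a glucose transporter of neurons and embryos, went from 11.6, 12.3 and 12.9 to 45.0, 57.5 and 60.6.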
